A study of Mus musculus with 12 samples.

Results

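Mature microRNAs (miRNAs) from the miR-219a and miR-338 hairpins, linked to differentiating oligodendrocytes, were followed in microglial exosomes after repetitive mild traumatic brain injury (rmTBI). These were 5 of the 1881 mouse miRNAs on the array. They were mmu-miR-219a-5p, mmu-miR-219a-1-3p, mmu-miR-219a-2-3p, mmu-miR-338-3p and mmu-miR-338-5p (the prefix mmu, for mouse, is left out below), which were found by their exact names in the array annotation. The match itself used no measured values, though the members were chosen with earlier results of these data known. Exosomes came from the brains of adult male C57BL/6 mice, 12 weeks old, in 4 groups of 3 arrays each. The 3 injured groups received 4 closed-head impacts at 48 h intervals and were sampled at 3, 14 or 42 days post-injury (DPI), and the sham group went through the same handling without an impact. The cortex and hippocampus of both hemispheres were mixed and digested with papain, and exosomes were precipitated from the supernatant and pulled down with a CD11b antibody, so that "microglial" here means carrying CD11b, which other myeloid cells also display. The sources used here do not say whether each array held 1 mouse or a pool, and p-values therefore measure the spread between arrays, which may be technical.

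A miRNA is cut from a hairpin precursor, is loaded into an Argonaute protein and represses transcripts that pair with its seed, the bases from position 2 to 8. In the brain, miR-219a-5p and miR-338-3p are known as the miRNAs that oligodendrocyte precursors switch on as they leave the cell cycle and differentiate, where they repress transcripts that hold precursors back, such as Pdgfra, Sox6 and Hes5. The other arms of these hairpins (miR-219a-1-3p, miR-219a-2-3p and miR-338-5p) come from the same precursors and pair with other targets.

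The sequences of the members are shown because at least 3 of them overlap an annotated mature miRNA on the opposite strand. They were taken from RefSeq (GRCm38.p6), where 4 of the 5 members had a mature entry. Each is written 5′ to 3′ with the seed in capitals.
miR-219a-5p: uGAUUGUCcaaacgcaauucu
miR-219a-1-3p: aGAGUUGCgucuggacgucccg
miR-338-3p: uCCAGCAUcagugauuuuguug
miR-338-5p: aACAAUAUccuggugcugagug
miR-219b-3p: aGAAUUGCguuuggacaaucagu
miR-219c-3p: cGAGAAUUgcguuuggacaauc
miR-3065-5p: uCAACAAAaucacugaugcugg
None of the 4 member seeds was shared with any of the other mature mouse miRNAs among the 1679 names of that table. miR-219a-5p is encoded at 2 sites, at chr2:29845689-29845709 and chr17:34025052-34025072, both on the minus strand, and the array cannot tell the copies apart. The chromosome 2 hairpin, Mir219a-2, lies within the span of the protein-coding gene Cercam and also yields miR-219a-2-3p, while the chromosome 17 hairpin, Mir219a-1, also yields miR-219a-1-3p (chr17:34025010-34025031). Both arms of miR-338 come from 1 hairpin within the span of Aatk, a kinase gene, with miR-338-3p at chr11:120014781-120014802 and miR-338-5p at chr11:120014816-120014837 on the minus strand. On the opposite strand, miR-219b-3p overlaps 21 of the 21 bases of miR-219a-5p on chromosome 2, and miR-219c-3p overlaps 20 of its bases on chromosome 17. There, miR-219c-5p overlaps 20 of the 22 bases of miR-219a-1-3p. On chromosome 11, miR-3065-5p overlaps 21 of the 22 bases of miR-338-3p. These antisense miRNAs (miR-219b-5p, miR-219b-3p, miR-219c-5p, miR-219c-3p, miR-3065-5p and miR-3065-3p) were on the array as well, and all 6 of them were detected on 0 of the 12 arrays.

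A miRNA's level below is the log2 of its summed probe signal after division by the 75th percentile of the 230 miRNAs detected on all 12 arrays, so that 0 is that percentile on each array. Values below a common floor of -5.06 were set to it, and a miRNA was detected on an array where more than a 0.5 share of the spots of at least 1 of its probes stood well above background. Levels of different miRNAs depend on their probes and were not set against each other, though the scaled signals of each marker list below were added up per array. The members miR-219a-5p, miR-219a-2-3p and miR-338-3p were detected on all 12 arrays. miR-338-5p was detected on none of the 3 sham and 3 arrays of 3 DPI, but on replicates 2 and 3 of 14 DPI and on all 3 arrays of 42 DPI. miR-219a-1-3p was detected on no array, with the mean signal of each of its 4 probes below 0 in every group, and it was left out of the tests. Below, both arms of miR-219a means the detected ones, miR-219a-5p and miR-219a-2-3p. Each member had 30 spots per array, none of them saturated.

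The arrays differed in brightness and in layout. The 75th percentile before scaling ran from 217 to 348 in sham and from 1385 to 2936 at 42 DPI, and the number of miRNAs detected from 243 to 285 in sham and from 490 to 579 at 42 DPI, so that low-signal members were measured with less precision in sham. The 3 sham arrays shared slide 1 with replicate 1 of 3 DPI, and all remaining 8 arrays were on slide 2, so that the slide and the injury can be separated only through the 3 DPI group. In such material, fewer exosomes from a cell type and less of a miRNA in each exosome cannot be told apart.

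miR-219a-5p, the main arm of both miR-219a hairpins, was highest at 42 DPI. Its level was -1.48, -1.34 and -1.08 in the sham arrays, replicates 1 to 3. It was -1.69, -0.93 and -0.89 at 3 DPI, where the array on the sham slide was the lowest of the series and the other 2 arrays lay above sham. At 14 DPI it was -1.04, -0.47 and 0.00, with all 3 arrays above sham, though the first by a small margin. At 42 DPI it was -0.25, -0.15 and 0.10, and these arrays lay above every array of sham and of 3 DPI. The group means ran from -1.30 ± 0.20 in sham through -1.17 ± 0.45 and -0.50 ± 0.53 to -0.10 ± 0.18 (SD, n = 3 each).

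miR-219a-2-3p, the opposite arm of the chromosome 2 hairpin, had near-equal means in sham and at 3 DPI and higher ones later. Its level was -2.89, -3.02 and -2.70 in sham and -2.77, -3.09 and -2.78 at 3 DPI, 2 sets of arrays that covered the same range. It was -2.54, -1.91 and -1.49 at 14 DPI, where replicate 1 was the lowest as for miR-219a-5p. It was -1.58, -1.66 and -1.69 at 42 DPI, the tightest of its groups. The means were -2.87 ± 0.16, -2.88 ± 0.18, -1.98 ± 0.53 and -1.64 ± 0.06 (SD, n = 3 each).

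miR-338-3p, the arm of miR-338 studied most in oligodendrocytes, had its highest mean at 42 DPI. Its level was 0.39, 0.97 and 0.91 in sham and 0.84, 1.58 and 0.52 at 3 DPI, where replicate 2 reached the range of the 42 DPI arrays. It was 0.58, 1.54 and 1.46 at 14 DPI, so that replicate 1 was within the sham range and the other 2 arrays above it. It was 1.70, 1.54 and 1.55 at 42 DPI, above every sham array. The means were 0.76 ± 0.32, 0.98 ± 0.54, 1.19 ± 0.53 and 1.60 ± 0.09 (SD, n = 3 each).

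miR-338-5p was at the floor on all sham and all 3 DPI arrays. At 14 DPI it was at the floor on replicates 1 and 2 and at -4.64 on replicate 3. At 42 DPI it was -5.00, -4.97 and -4.88, close to the floor on each array. Before scaling, its summed signal was between -0.64 and 1.95 in sham and between 3.26 and 11.3 at 3 DPI. At 14 DPI it was between 8.24 and 44.8, and by 42 DPI between 44.2 and 91.6, which ran along with the brightness of the arrays. It was tested only because it was detected at 42 DPI, so its place among the tested miRNAs was fixed by the group in which it was highest.

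**Figure D1:**
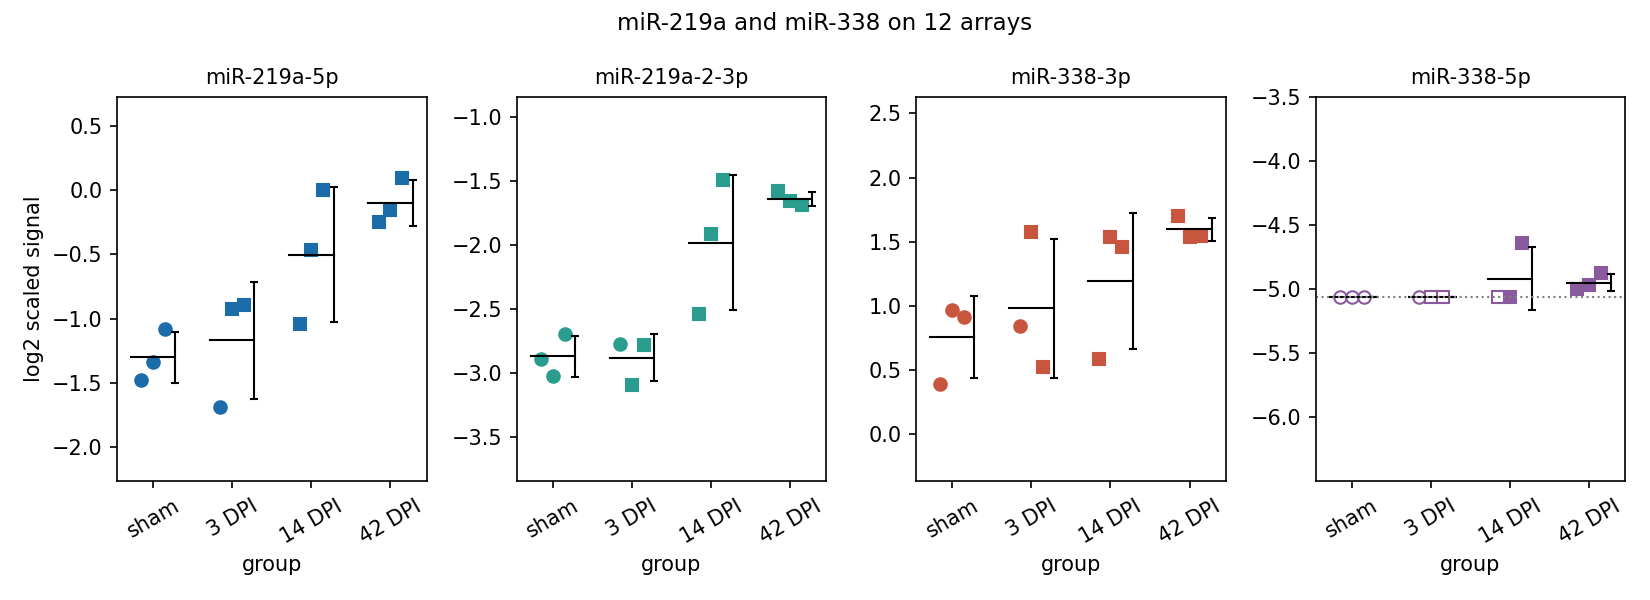
Level (log2 scaled signal) of 4 members on the 12 arrays, by group. Circles are arrays of slide 1 and squares arrays of slide 2, open symbols were not detected, horizontal lines and bars are the group mean and SD (n = 3), the dotted line is the floor of -5.06, and each panel has its own axis of equal span. The 3 arrays of 42 DPI lie above the 3 sham arrays in each panel, as for 31.3% of the 486 miRNAs tested. miR-338-5p, tested only because 42 DPI detected it, stays next to the floor, with every sham array at the floor.

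At 3 DPI, in the acute phase, no member was called different from sham. The log2 changes were 0.13 (95% interval -0.53 to 0.80) for miR-219a-5p, -0.01 (-0.53 to 0.51) for miR-219a-2-3p and 0.22 (-0.51 to 0.96) for miR-338-3p. With limma and Benjamini-Hochberg adjustment, 0 of the 4 tested members were called at an adjusted p under 0.05, beside 0 of all 486 miRNAs tested (percent called 0). At an unadjusted p under 0.05 it was also 0 of the 4, with limma and with the methods' t-test, beside 2.26% of the 486 with limma. The intervals still contain changes of up to 1.74-fold for miR-219a-5p and 1.95-fold for miR-338-3p. On slide 1 alone, the 3 DPI array differed from sham by -0.39 for miR-219a-5p, 0.10 for miR-219a-2-3p and 0.09 for miR-338-3p (log2, 1 array against 3), and the first of these is opposite in sign to the value over all arrays.

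At 14 DPI, the sub-acute phase, both arms of miR-219a had higher means than sham but were not called. miR-219a-2-3p differed by 0.89 on the log2 scale (SE 0.23, 1.85-fold, 95% interval 1.29 to 2.65, adjusted p = 0.074, limma). miR-219a-5p differed by 0.80 (SE 0.29, 1.74-fold, 95% interval 1.10 to 2.76, adjusted p = 0.15). miR-338-3p differed by 0.44 (SE 0.32, 1.35-fold, 95% interval 0.81 to 2.26, adjusted p = 0.46). Thus 0 of the 4 members were called by limma, where 3.7% of the 486 miRNAs were, and 2 had an unadjusted p under 0.05, where 21.8% of the 486 did. The methods' t-test also called 0 after adjustment. All 14 DPI arrays lay above all sham arrays for 2 members, miR-219a-5p and miR-219a-2-3p, against 5.14% of the tested miRNAs. Replicate 1 of 14 DPI was the lowest array of its group for the 3 members detected throughout, and without it miR-219a-2-3p was 1.16 higher than sham (adjusted p = 0.0046) and miR-219a-5p 1.07 higher (adjusted p = 0.022). Both were then called, as were 33.3% of all 486 miRNAs without that array. No slide held both sham and 14 DPI arrays, so a slide block compares them only through 1 array, replicate 1 of 3 DPI. With the slide as a block the differences at 14 DPI were 1.05 for miR-219a-2-3p (adjusted p = 0.49), 0.02 for miR-219a-5p (adjusted p = 1) and 0.23 for miR-338-3p (adjusted p = 0.94).

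At 42 DPI, the chronic phase, both detected arms of miR-219a were higher than in sham. miR-219a-2-3p was 2.34-fold higher (95% interval 1.63 to 3.36), a log2 change of 1.23 (SE 0.23, adjusted p = 0.010, limma). miR-219a-5p was 2.30-fold higher (95% interval 1.45 to 3.64), a log2 change of 1.20 (SE 0.29, adjusted p = 0.016). miR-338-3p had a mean 1.79 times that of sham (95% interval 1.07 to 2.98), a log2 change of 0.84 (SE 0.32, unadjusted p = 0.030), and did not pass the adjustment (adjusted p = 0.073), though all 3 arrays lay above all 3 sham arrays. For miR-338-5p the difference of 0.11 (adjusted p = 0.42) is set by the floor, and no bound on its fold could be given, since the dimmest detected miRNAs of the sham arrays had higher scaled signals than miR-338-5p at 42 DPI.

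The 2 called members of 4 stand beside 34.2% of the 486 miRNAs called in either direction at 42 DPI, 13.6% higher and 20.6% lower, and 31.3% had all 42 DPI arrays above sham. In the order of log2 changes from the highest, miR-219a-2-3p was at place 12, miR-219a-5p at 13, miR-338-3p at 47 and miR-338-5p at 169 of 486. The median change of all 486 was -0.09, so that the changes of the members above it were 1.32, 1.29, 0.93 and 0.21 in that order.

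**Figure D2:**
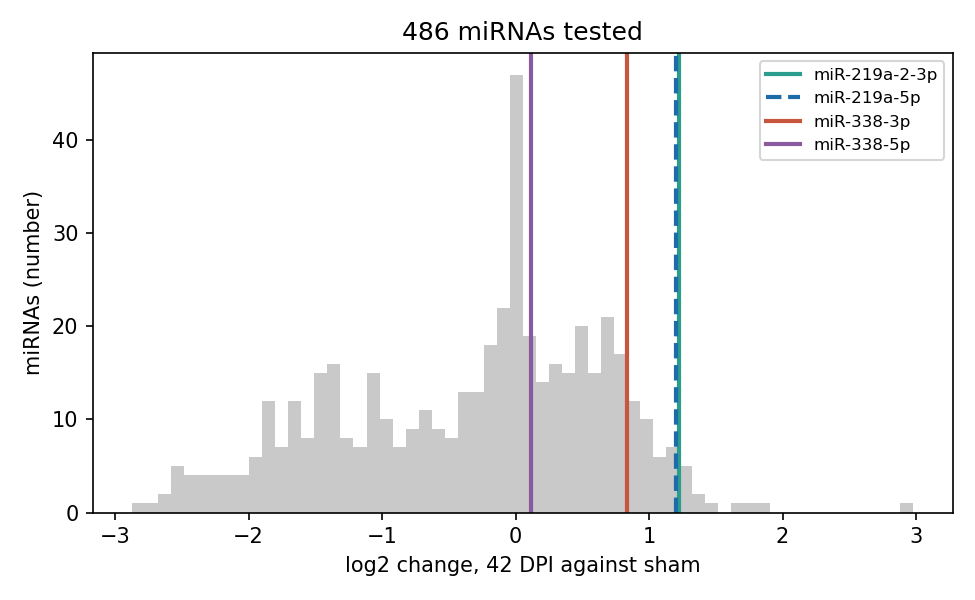
Number of miRNAs by log2 change at 42 DPI against sham, for the 486 miRNAs tested, with 4 members as vertical lines. Both detected arms of miR-219a (1.23 and 1.20) lie near the upper end, miR-338-3p (0.84) lower and miR-338-5p (0.11) near the middle.

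The calls at 42 DPI changed with a slide block and with single arrays left out. No slide held both sham and 42 DPI arrays, so the blocked estimate runs through 1 array, replicate 1 of 3 DPI. With the slide as a block, the change of miR-219a-2-3p was 1.39 (adjusted p = 0.15), that of miR-219a-5p 0.42 (adjusted p = 0.54) and that of miR-338-3p 0.63 (adjusted p = 0.50), and 0 of all 486 miRNAs were called in that fit. miR-219a-2-3p was called without any 1 of the 6 sham and 42 DPI arrays (1.15 to 1.31), in fits that called 9.47% to 29.4% of the 486, whereas miR-219a-5p was not called without sham replicate 1 (1.11, adjusted p = 0.066), sham replicate 2 (1.18, adjusted p = 0.054), 42 DPI replicate 1 (1.27, adjusted p = 0.052) or 42 DPI replicate 3 (1.10, adjusted p = 0.060). With a normexp background correction miR-219a-2-3p changed by -0.09 (adjusted p = 0.57), in a setting that moved the median of all miRNAs to -0.81. Taken above that median, the change of miR-219a-2-3p was 0.72.

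**Figure D3:**
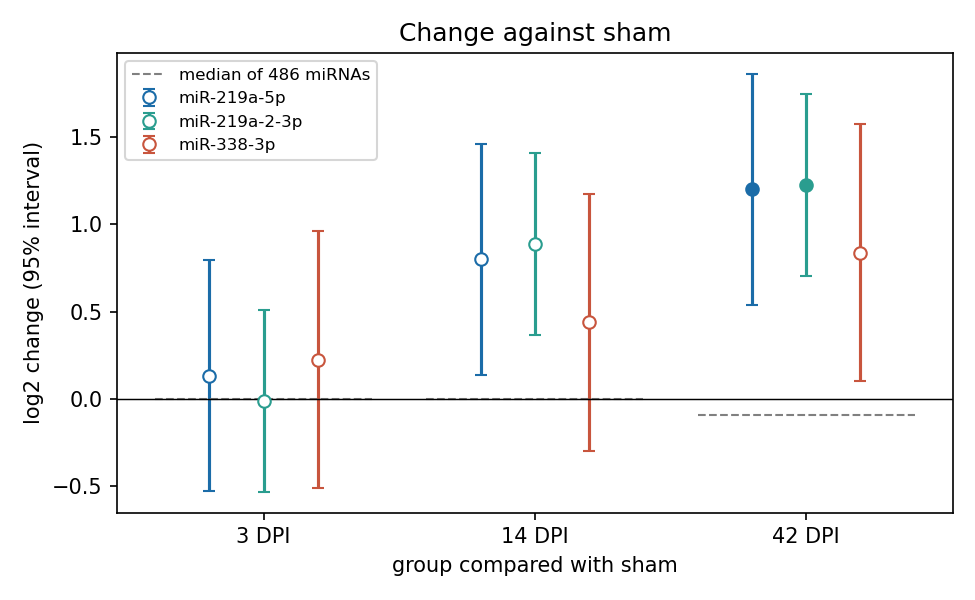
Log2 change against sham (points) with its 95% interval (bars) at 3, 14 and 42 DPI for 3 members, from 1 limma fit over 12 arrays. Filled points passed an adjusted p of 0.05 and dashed lines are the median of the 486 miRNAs tested. Both detected arms of miR-219a are filled at 42 DPI, at 1.20 and 1.23.

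Between the times after injury, both arms of miR-219a were higher at 42 than at 3 DPI. miR-219a-2-3p was 2.36-fold higher (log2 change 1.24, SE 0.23, adjusted p = 0.017, limma) and miR-219a-5p 2.10-fold (1.07, SE 0.29, adjusted p = 0.028), with all 42 DPI arrays above all 3 DPI arrays for both. miR-338-3p differed by 0.61 (SE 0.32, adjusted p = 0.15), with overlapping arrays. These 2 calls among 4 members stand beside 38.3% of the 486 miRNAs called in that comparison and 28.6% whose 42 DPI arrays all lay above 3 DPI. This comparison can be made within slide 2, where 2 arrays of 3 DPI and 3 of 42 DPI lay. There miR-219a-2-3p differed by 1.29 (adjusted p = 0.058), miR-219a-5p by 0.81 (adjusted p = 0.11) and miR-338-3p by 0.55 (adjusted p = 0.33), and 0 of the 486 miRNAs were called. With the slide as a block over all arrays, miR-219a-2-3p was called (1.29, adjusted p = 0.030) and miR-219a-5p was not (0.81, adjusted p = 0.062), where 19.3% of the 486 were called.

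Without 42 DPI replicate 1 neither arm was called between 42 and 3 DPI (miR-219a-2-3p 1.21, adjusted p = 0.068; miR-219a-5p 1.14, adjusted p = 0.079), nor without 42 DPI replicate 3 (1.26, adjusted p = 0.061 and 0.97, adjusted p = 0.090), and in both fits 0 of all 486 miRNAs were called. Of the 2, only miR-219a-5p lost its call without 3 DPI replicate 1 (0.81, adjusted p = 0.062), 3 DPI replicate 3 (1.21, adjusted p = 0.062) or 42 DPI replicate 2 (1.10, adjusted p = 0.062), where 19.3%, 7.82% and 11.5% of the 486 were called. miR-338-3p was called without 3 DPI replicate 2, its brightest array at that time (0.91, adjusted p = 0.046), where 40.9% of the 486 were called.

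The 14 DPI group lay between 3 and 42 DPI in the means of the 3 members detected throughout. Against 3 DPI, miR-219a-2-3p differed by 0.90 (SE 0.23, adjusted p = 0.10), miR-219a-5p by 0.67 (SE 0.29, adjusted p = 0.24) and miR-338-3p by 0.21 (SE 0.32, adjusted p = 0.73). None of the 4 was called by limma (2 at an unadjusted p under 0.05, where 20.2% of all did so), where 0.617% of the 486 miRNAs were called, and 1 member, miR-219a-2-3p, had all 14 DPI arrays above 3 DPI, against 4.73% of the miRNAs. Without 14 DPI replicate 1, miR-219a-2-3p (1.18, adjusted p = 0.0046) and miR-219a-5p (0.94, adjusted p = 0.042) were called, as were 27% of the 486. Between 42 and 14 DPI the differences were 0.34 (95% interval -0.18 to 0.86) for miR-219a-2-3p, 0.40 (-0.26 to 1.07) for miR-219a-5p and 0.40 (-0.34 to 1.14) for miR-338-3p. None was called, with limma or with the methods' t-test, at an unadjusted p under 0.05 either, and 0 of the 486 miRNAs were called (percent called 0; 11.1% at an unadjusted p under 0.05). Thus no pair of neighbours in the order sham, 3, 14 and 42 DPI was called for any of these members, nor was 14 DPI against sham.

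The 2 probes of each detected member moved alike. From sham to 42 DPI, the probe means of miR-219a-5p differed by 1.23 and 1.19 on the log2 scale. Those of miR-219a-2-3p differed by 1.33 and 1.18 and those of miR-338-3p by 0.94 and 0.82. For all 6 probes the 42 DPI arrays lay above the sham arrays, as they did for 31.3% of the 486 miRNAs. The probes were summed into the levels above and are not separate evidence. The dimmer probe of miR-219a-2-3p was detected on 10 of the 12 arrays and the other 5 probes on all 12. Of the 4 probes of miR-338-5p, 1 was detected on 5 arrays, 1 on 2 arrays and the other two on none.

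**Figure D4:**
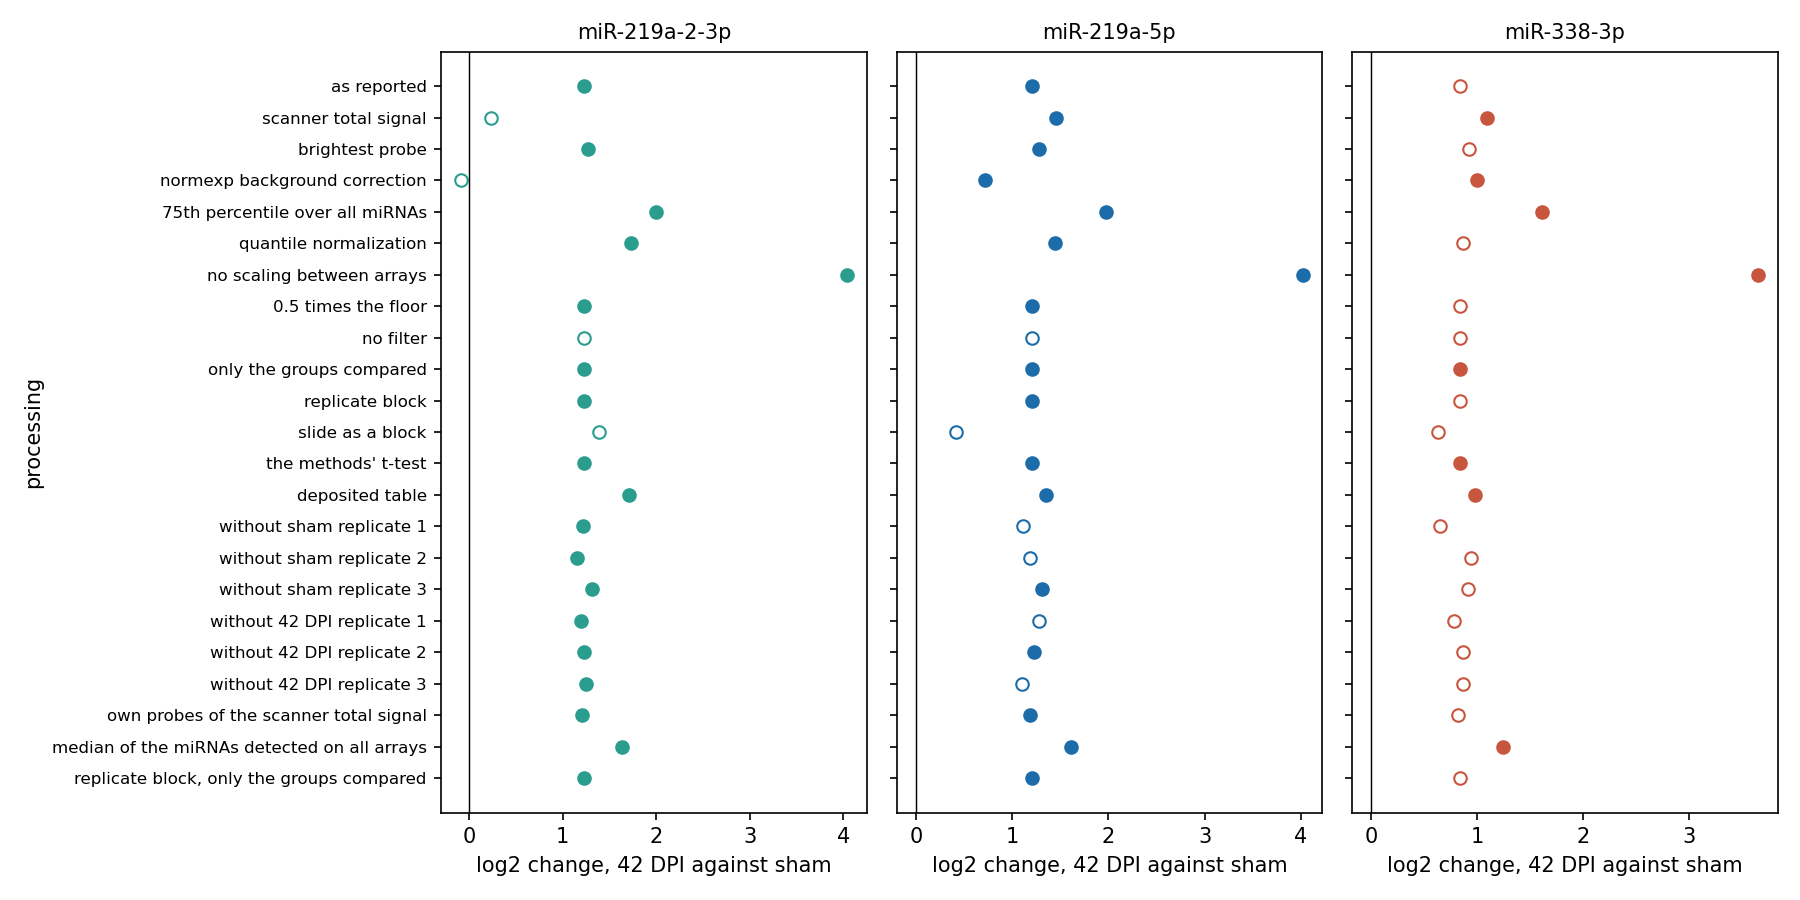
Log2 change at 42 DPI against sham for 3 members under each way of processing, with filled points where the adjusted p was under 0.05. miR-219a-2-3p drops to 0.24 with the scanner's total signal and -0.09 with normexp, miR-219a-5p to 0.42 with the slide as a block, and miR-338-3p passes the threshold in several settings, such as 1.00 with normexp and 0.98 in the deposited table.

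The likeness of the members' profiles was read from the root mean square difference between log2 levels over the 12 arrays, each profile centred on its own mean, against 315 other miRNAs detected on at least 9 arrays. Closest to miR-219a-5p were miR-218-5p (0.12), miR-127-3p (0.19) and miR-27b-3p (0.23), where the median over the 315 was 0.67. Closest to miR-219a-2-3p were miR-127-3p (0.16), miR-376a-3p (0.17) and miR-350-3p (0.19), with a median of 0.69. Closest to miR-338-3p were miR-434-5p (0.08), miR-146b-5p (0.10) and miR-221-3p (0.10), with a median of 0.57. The arms of miR-219a differed from each other by 0.27, so that 13 other miRNAs were closer to either arm than its partner was. miR-338-3p differed by 0.38 from miR-219a-5p and by 0.44 from miR-219a-2-3p, behind 128 and 143 other miRNAs. These are descriptions over arrays that share slides and brightness.

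Other miRNAs linked to the oligodendrocyte lineage and to myelination were counted beside the members. Of 14 on the array 11 were tested, and at 42 DPI 2 were called higher than sham and 1 lower, with a median log2 change of 0.34 beside -0.09 for all 486. Over all 486, 34.2% were called, 13.6% higher and 20.6% lower. The higher ones were miR-23a-3p, known to repress lamin B1 and to favour oligodendrocyte maturation (1.04, SE 0.23, adjusted p = 0.014), and its cluster partner miR-27a-3p (0.85, SE 0.20, adjusted p = 0.015). The lower one was miR-200b-3p, which is known best from epithelia (-1.99, SE 0.52, adjusted p = 0.021). None of the 11 was called at 3 or 14 DPI, where their medians were 0.09 and 0.12. At 42 DPI the 2 higher calls fell to 0 without sham replicate 1, without 42 DPI replicate 1 and with the slide as a block, and the lower call was kept without sham replicate 3 but lost without each of the other 5 arrays of that comparison.

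The part of other cells in the members' changes was not tested, and the levels of their markers were as follows. Of the 7 miRNAs of microglia and myeloid cells 4 were tested and 3 were called higher at 42 DPI, beside 13.6% of all 486. These were miR-21a-5p (0.86, adjusted p = 0.049), miR-146a-5p (0.51, adjusted p = 0.026) and miR-142a-3p (0.46, adjusted p = 0.0498), and the last 2 were detected on no sham array and on all 42 DPI arrays, which gave no bound on their fold above 1. miR-146a-5p and miR-142a-3p entered the tests only because of 42 DPI, so their places there were fixed by the group in which they were highest. The fourth, miR-223-3p, a defining myeloid miRNA, changed by -0.13 (adjusted p = 0.49). The median change of the 4 was 0.49. Without any 1 of the sham arrays, without 42 DPI replicate 1 or 2 and with the slide as a block the 3 calls fell to 0, and without 42 DPI replicate 3 or with the replicate block to 1. The summed level of the list, like those of the lists below, counts undetected miRNAs too. In sham, 1 of the 7 was detected on all 3 arrays and 5 on none. This summed level lay between -0.41 and 0.03 in sham and between -0.49 and 0.07 at 3 DPI. At 14 DPI it spanned -0.30 to 0.44. At 42 DPI it spanned 0.51 to 0.66. miR-223-3p was detected on 1 of 3 sham arrays and all 9 injury arrays, and miR-142a-3p on 0 of 3 sham and 0 of 3 3 DPI arrays. miR-142a-5p and miR-223-5p were detected on none of the 12. These myeloid markers were thus mostly not detected in sham, whose arrays were the dimmest, while miR-21a-5p was detected on all 3 sham arrays.

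Of 10 neuronal miRNAs, all tested, 2 were called higher at 42 DPI, miR-128-3p (1.05, adjusted p = 0.022) and miR-137-3p (0.59, adjusted p = 0.015), beside 13.6% of all 486 called higher, and 8 were detected on all 3 sham arrays. Their summed level lay between 4.32 and 4.79 in sham and between 4.25 and 4.90 at 3 DPI. At 14 DPI it spanned 4.32 to 5.22. At 42 DPI it spanned 5.06 to 5.26, above all sham arrays. Their median change at 42 DPI was 0.44, and the 2 calls fell to 0 without sham replicate 1 or 2, without 42 DPI replicate 1 or 3 and with the slide as a block. Of 4 miRNAs of vessel cells, 1 was called higher at 42 DPI, the smooth muscle miRNA miR-143-3p, which was not detected in sham and was at least 1.83-fold higher (adjusted p = 0.034, limma), and their summed level ran from 0.14 to 0.59 in sham and 0.61 to 0.83 at 42 DPI, with a median change of 0.16. That call was lost without any 1 of the 6 arrays and with the slide as a block. miR-143-3p entered the tests only because of 14 and 42 DPI. Of 5 erythrocyte miRNAs on the array 2 were tested, and miR-486a-5p was called lower at 42 DPI (-0.68, adjusted p = 0.022) although it was detected on 0 of 3 sham arrays and 3 of 3 at 42 DPI, so that the call has no measured level in sham behind it, and it too was lost without each of these 6 arrays except sham replicate 3. The summed level of the erythrocyte list ran from -0.07 to 0.31 in sham and 0.17 to 0.36 at 42 DPI, with a median change of -0.27 and with miR-144-3p and miR-144-5p detected on no array. None of the miRNAs of these 4 lists was called at 3 or 14 DPI.

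The scanner software also gives each miRNA a total signal, and for miR-338-5p this column followed that of miR-338-3p on part of the arrays. On 5 arrays, 14 DPI replicates 2 and 3 and the 3 of 42 DPI, the total of miR-338-5p was 936, 836, 2621, 1086 and 1493, while its own probes summed to 4.52, 5.81, 11.7, 5.59 and 8.19. The total of miR-338-3p on these arrays was 932, 831, 2609, 1081 and 1485, so that the total of miR-338-5p equalled that of miR-338-3p plus its own probes to within 0.92. On the other 7 arrays the total of miR-338-5p was at the software's lowest value of 0.1. For miR-219a-2-3p, sham replicate 2 had a total of 76.2 against 5.68 from its own probes. Its change at 42 DPI from the total column was 0.24 (adjusted p = 0.90), and from its own probes' totals 1.21.

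**Figure D5:**
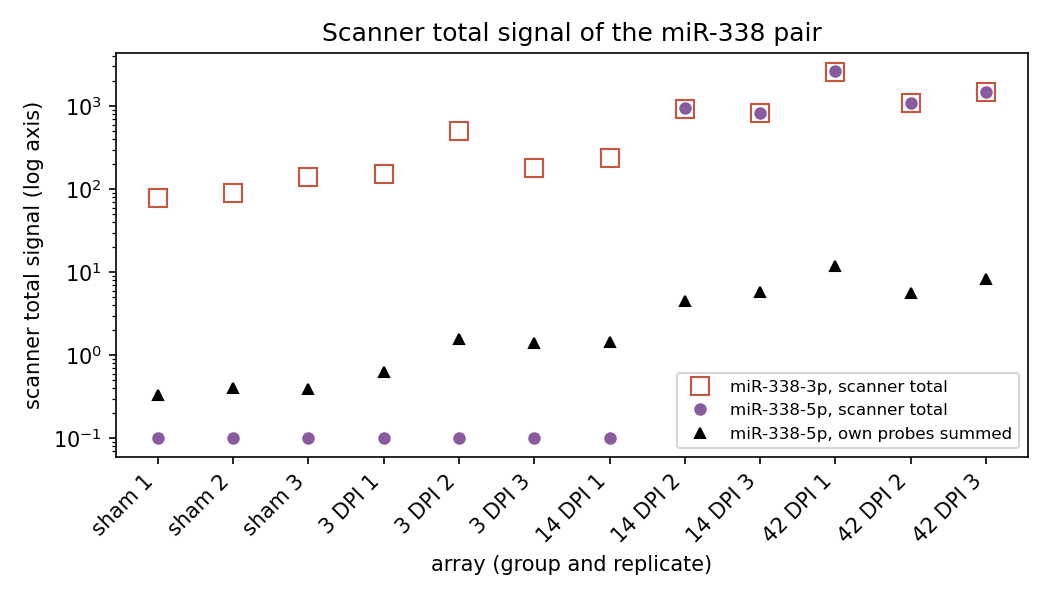
Scanner total signal (log axis) on each array: squares are the total of miR-338-3p, circles the total of miR-338-5p and triangles the sum of miR-338-5p's own probes. On 5 arrays the circles sit inside the squares, while the triangles stay at 4.52 to 11.7.

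The authors' processed table was fitted in the same way. Against sham, the changes at 42 DPI were 1.71 for miR-219a-2-3p (adjusted p = 0.0020), 1.35 for miR-219a-5p (adjusted p = 0.0071), 0.98 for miR-338-3p (adjusted p = 0.036) and 3.84 for miR-338-5p (adjusted p = 4.5e-05), with limma on the deposited log2 values, whose median change over the 486 miRNAs was 0.44 and of which 51.2% were called. Above that median the changes were 1.27, 0.91, 0.54 and 3.40, beside 1.32, 1.29, 0.93 and 0.21 from the scanner signals. The table put miR-338-5p at its lowest value, -3.32, on all sham arrays, and at 0.551, 0.515 and 0.479 at 42 DPI, where the value of replicate 2 lies exactly midway between the others. Among the tested miRNAs with unequal values, 13% had such an array at 42 DPI and 22.9% in sham (to within 2e-08), beside 0 miRNAs at 42 DPI and 1 in sham in the scanner values.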

How the data were processed

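Exosomal RNA of 12 samples was hybridised by the authors to one-colour Agilent miRNA arrays labelled with Cy3. Per the file headers and labels, they were read with Agilent Feature Extraction 10.7.1.1, and the deposited scanner intensity used here is its background-subtracted processed signal. The authors also deposited a log2 table of processed values; its normalization is not given in the sources used here.

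Control spots and outlier spots were left out, spots averaged per probe and probes summed per miRNA. On each array, signals were divided by the 75th percentile of the 230 miRNAs that all 12 arrays detected, then set to a floor (the median over arrays of the 1st percentile of detected values, -5.06 in log2) and log2-transformed. A miRNA entered the tests if some group detected it on its 3 arrays, which left 486 of 1881. They were tested with limma 3.58.1 (R 4.3.3; lmFit and eBayes, two-sided, 4 groups, no covariates) with Benjamini-Hochberg adjustment, after the fit was tested on simulated data. The methods' t-test was an alternative on the same values. With 3 arrays per group, their number limits the precision.

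The members, lists and tests were chosen with earlier results of these data known. The text names the 5 members, their antisense miRNAs, the 3 miRNAs closest in profile and, of each list, those called (at most 6). Lists came from general knowledge; 2 oligodendrocyte-lineage miRNAs also stand in the neuronal list and 1 in the vessel list. For sham and 14 DPI, deviations of same-numbered arrays from their group means correlated at 0.83, 0.44 and 0.75 in this data. These values are not independent, since the deviations of a group cancel out. The labels do not say that arrays were paired, and the fit was unpaired. A block on replicate numbers, an alternative, changed no call of a member. Alternatives to each step are given at the end. miRNAs with no entry in the RefSeq table are named without sequence.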

Additional observations from a re-analysis of the deposited data

Results flagged for a closer look

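The changes against sham differed between 42 and 3 DPI for both arms of miR-219a, by 1.24 on the log2 scale for miR-219a-2-3p (adjusted p = 0.017) and by 1.07 for miR-219a-5p (adjusted p = 0.028) in the limma contrast of these groups, with Benjamini-Hochberg adjustment over 486 miRNAs. All 3 arrays of 42 DPI lay above all 3 of 3 DPI for both, as for 28.6% of the 486 miRNAs, and 38.3% of the 486 were called. Within slide 2, 0 of the 486 were called in this comparison. The scanner's total signal, used above only as an alternative, averaged 1733 for miR-338-5p at 42 DPI and stood at 0.1 on each sham array, while its own probes summed to at most 11.7.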

How the results depend on the processing

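The 4 tested members were refitted under other processing choices and, chosen after seeing the data, under own-probe totals of the scanner signal, scaling by the median, a replicate block in only the groups compared, and fits within a slide. No fit within a slide could be made for 42 DPI against sham, which shared no slide. Under each of the other choices the change of miR-219a-5p in that comparison was above 0. It ran from 0.42 with the slide as a block, where it was not called, to 4.02 with no scaling. The level of miR-338-5p, next to the common floor, moved with the floor and the scaling. The cause of each difference below was not tested.

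At 42 DPI against sham, the 2 called members became 4 with the 75th percentile over all miRNAs, no scaling, the deposited table or scaling by the median (45.9%, 84%, 51.2% and 39.1% of the 486 called), and 3 with the scanner total signal, normexp (1 of them lower), quantile normalization, 0.5 times the floor, only the groups compared or the methods' t-test (36.4% to 89.1% called). miR-219a-2-3p was not among the 3 with the scanner total signal (0.24, limma adjusted p = 0.90) or with normexp (-0.09, limma adjusted p = 0.57). The count with the scanner total signal includes miR-338-5p, whose total held that of miR-338-3p. Each count of 4 here also includes miR-338-5p, which was detected on no sham or 3 DPI array and entered the tests through 42 DPI. So do the counts of 3 with quantile normalization and normexp, and the 2 at 14 DPI in the deposited table. Taken above the median of all miRNAs, its change at 42 DPI against sham was -0.06 with no scaling. The 2 called members became 0 with no filter or with the slide as a block (3.29% and 0% called). At 42 against 3 DPI, the 2 became 4 with the 75th percentile over all miRNAs or no scaling (54.1% and 62.3% called), 1 with the slide as a block or the methods' t-test (19.3% and 29.2%), and 0 with no filter, within slide 2 or with the replicate block in only the groups compared (0% called in each). At 14 DPI against sham, the 0 became 1 with normexp (miR-338-5p, lower; 77.6% called), 3 with no scaling (65.6%) and 2 in the deposited table (29.4%). At 14 against 3 DPI, it became 1 with normexp (miR-338-5p, lower; 14.8%) and 1 in the deposited table (22%), and at 42 against 14 DPI 4 with no scaling (34.2%) and 1 in the deposited table (3.29%). At 3 DPI against sham, 1 was called with normexp, miR-338-5p, which was lower (39.7% called).

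Without 1 array at a time, the number of members called ran from 1 to 2 at 42 DPI against sham, 0 to 3 at 42 against 3 DPI, and 0 to 2 at 14 DPI against sham and at 14 against 3 DPI. The log2 change then ran at 3 DPI against sham from -0.0085 to 0.39 for miR-219a-5p, -0.087 to 0.094 for miR-219a-2-3p and -0.074 to 0.45 for miR-338-3p, at 14 against 3 DPI from -0.015 to 0.52 for miR-338-3p, and at 42 against 14 DPI from -0.10 to 0.11 for miR-338-5p.

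Signs turned with normexp for miR-219a-5p at 3 DPI (-0.040), for miR-219a-2-3p at 14 DPI (-0.15) and 42 DPI (-0.090), and for miR-338-5p at 14 DPI (-1.20) and 42 DPI (-1.63) against sham and at 14 (-0.66) and 42 (-1.10) against 3 DPI. miR-219a-2-3p turned at 3 DPI with no scaling (0.78) and at 14 DPI with the scanner total signal (-0.14). With the slide as a block, and within slide 1, the changes at 3 DPI turned to -0.39 for miR-219a-5p and 0.10 for miR-219a-2-3p. For miR-338-5p between 42 and 14 DPI, the change turned to 2.21 with the scanner total signal, 0.47 with the 75th percentile over all miRNAs, 0.47 with quantile normalization, 1.08 with no scaling, 0.32 with 0.5 times the floor, 2.11 in the deposited table and 0.16 with scaling by the median.

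At 42 DPI the median of all 486 miRNAs moved from -0.09 to 0.46 with the 75th percentile over all miRNAs, 0.14 with quantile normalization, 1.90 with no scaling and 0.44 in the deposited table. Above it, miR-219a-2-3p was 1.54, 1.58, 2.15 and 1.27 higher. The calls over all miRNAs at 42 DPI were 66 higher and 100 lower as reported, 152 and 71 when the percentile was taken over all miRNAs, and 118 and 77 with quantile normalization. The replicate block changed no member's call in the 12-array fit (42 DPI against sham: miR-219a-2-3p adjusted p = 0.018, miR-219a-5p adjusted p = 0.013). In the pairs of groups other than sham and 14 DPI, same-numbered arrays did not all deviate together (correlations from -0.77 to 0.79). No label says that arrays of any groups were paired.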
